A study of Mus musculus with 8 samples.

Results

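Besides the androgen receptor, prostate cells carry receptors for estrogens, progesterone, glucocorticoids and mineralocorticoids, together with enzymes that activate, inactivate or interconvert steroids on the spot. A group of 10 such genes was followed in prostate tissue, *Olfm4*-knockout against wild type: the receptors *Esr1*, *Esr2*, *Pgr*, *Nr3c1* and *Nr3c2*, and the enzymes *Hsd11b1*, *Hsd17b4*, *Hsd17b6*, *Hsd17b11* and *Sts*. Every probe set annotated to one of these symbols was taken, whatever its value, which gave 22 of the 45037 probe sets tested and covered 9 of the 10 genes. *Sts* has no probe set annotated to it in the table used and was not analysed here. None of the 22 probe sets was annotated to a second gene.

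RNA was prepared from whole prostate of 3-month-old mice, either *Olfm4*-/- (4 arrays) or *Olfm4*+/+ (4 arrays), with 1 mouse per array by the methods, and hybridised to genome-wide Affymetrix mouse arrays. Both genotypes were of the same mixed background (50% 129/SV, the rest Black Swiss of the National Institutes of Health), were untreated, and came from a colony kept by mating heterozygotes. The sources describe no restriction of the deletion to a cell type. The labels give 2 array days that both hold 2 knockout and 2 wild-type arrays: knockout arrays 3 and 4 and wild-type arrays 1 and 4 on day 1, the others on day 2. The labels name a Trizol extraction and hold 4 mice per genotype, whereas the methods name a column kit and more mice. A figure legend of the paper gives 4 or 3 per genotype for its microarrays.

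The labels were checked against the targeted gene and against tissue markers. *Olfm4* (1437060_at) had log2 values of 3.09, 3.00, 3.25 and 3.09 on knockout arrays 1 to 4, against 10.32, 10.23, 10.74 and 10.65 on wild-type arrays 1 to 4, and fell by 7.37 on the log2 scale (SE 0.13, limma adjusted p = 1.79e-06). Luminal epithelial markers averaged 13.28 to 13.68 on knockout arrays and 13.64 to 13.68 on wild-type arrays over the 9 measured. The lowest mean was that of knockout array 1, where the luminal marker *Msmb* was 11.09, against 14.09 to 14.35 on all other arrays. Knockout array 1 and wild-type array 1 stood apart in seminal vesicle transcripts, whose mean over 6 genes was 13.81 on the knockout array and 14.15 on the wild-type array, against 7.88 to 10.04 on the other 6 arrays. Array medians lay between 6.03 and 6.09.

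The steroid receptors are transcription factors that rest with chaperones until a hormone binds, then act on DNA response elements and recruit coactivators. *Esr1* and *Esr2* encode the alpha and beta estrogen receptors, which in rodent prostate are known from stroma and epithelium. *Pgr* encodes the progesterone receptor, a classical estrogen target in the uterus and a stromal protein in the prostate. *Nr3c1* and *Nr3c2* encode the glucocorticoid and mineralocorticoid receptors, which share the ligand corticosterone in mice. Among the enzymes, *Hsd11b1* regenerates corticosterone from its inert keto form, the *Hsd17b* genes encode dehydrogenases of steroids and lipids, and *Sts* frees steroids from their sulfates.

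No member passed the adjusted threshold. Adjusted p ran from 0.206 to 0.988 over the 22 probe sets (limma, genotype and array day as terms, Benjamini-Hochberg over 45037 probe sets). Over all probe sets, 50 passed, 27 higher and 23 lower in knockout prostate, or 0.111%. At an unadjusted p under 0.05, 1 member probe set was higher (4.55%) and 2 were lower (9.09%), against 5.46% higher and 7.34% lower in the whole table. The knockout arrays all lay above the wild-type arrays for 1 member probe set (4.55%, against 3.69% in the table) and all below for 2 (9.09%, against 5.03%). These shares of 22 probe sets are close to those of the table. The log2 fold change was above 0 for 8 probe sets and below 0 for 14, with a median of -0.04 beside -0.01 over all probe sets. Of the 22, 16 had a mean log2 value of 5 or more and 6 a mean under 5.

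**Figure D1:**
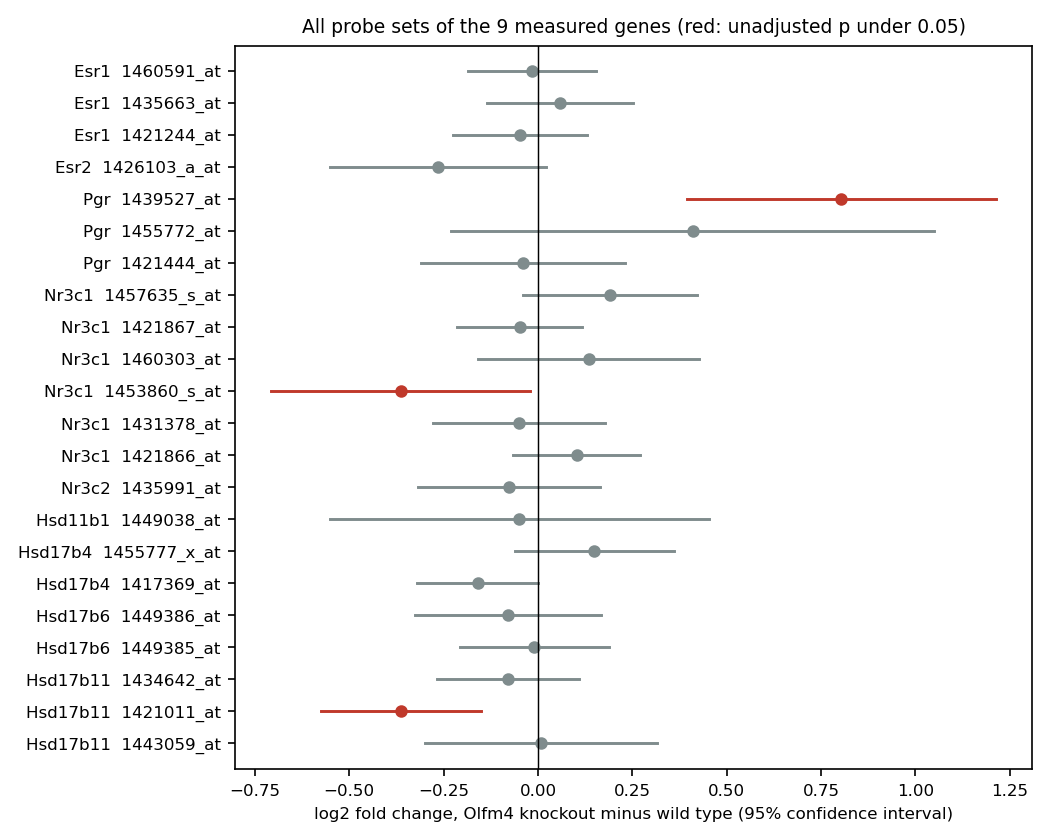
Log2 fold change of knockout over wild type (x axis) for each of the 22 probe sets of the 9 measured genes (rows), from limma with array day as a second term; points are estimates, bars 95% confidence intervals, and red marks an unadjusted p under 0.05. *Pgr* 1439527_at at 0.80 lies farthest from 0, and 19 of the 22 intervals include 0.

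The progesterone receptor gene showed the widest difference of the group. *Pgr* (1439527_at) had log2 values of 8.56, 8.40, 8.11 and 8.52 on the knockout arrays, against 7.21, 7.86, 7.43 and 7.88 on the wild-type arrays. The lowest knockout array lay above the highest wild-type array. The mean was 8.40 ± 0.20 in knockout prostate and 7.59 ± 0.33 in wild-type prostate (SD, n = 4 each), a log2 fold change of 0.80 (SE 0.18, 95% confidence interval 0.39 to 1.21), or 1.75-fold. Its unadjusted limma p was 0.00213 and its adjusted p 0.206, so the difference did not pass over the whole table. The exact permutation test (2-sided), which left array day out, gave p = 0.0286, the smallest that 4 arrays against 4 allow. The log2 fold change was 0.77 on array day 1 and 0.84 on day 2, and 0.60 with the first array of each genotype left out (adjusted p = 0.284, limma). As the tissue was whole prostate, more cells that express *Pgr* and more of its RNA per cell cannot be told apart.

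The other probe sets of *Pgr* did not separate the genotypes. Probe set 1455772_at had 6.54, 5.52, 5.64 and 5.15 on the knockout arrays, against 4.77, 6.06, 5.21 and 5.17 on the wild-type arrays. Its groups overlapped, with a log2 fold change of 0.41 and a confidence interval of -0.23 to 1.05 (adjusted p = 0.581, limma). It was also the 1 member probe set with an unadjusted day p under 0.05, being higher on day 2 by 0.65. Probe set 1421444_at was dim, at 3.17 to 3.50 on knockout arrays and 3.22 to 3.60 on wild-type arrays. Averaged over its 3 probe sets, *Pgr* had a log2 fold change of 0.39, less than that of its brightest probe set by more than 1.5 times.

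Marker lists of several cell types and tissues are given beside *Pgr*. At an unadjusted p under 0.05, 6.27% of all genes were higher and 8.49% lower in knockout prostate. The median log2 fold change over all genes was -0.01. All 9 basal epithelial markers had a higher mean in knockout prostate, 5 of them at an unadjusted p under 0.05, and their mean level was 10.28 to 10.62 on knockout arrays against 9.98 to 10.24 on wild-type arrays (median log2 fold change 0.33). All 10 fibroblast markers had a higher mean too, 3 of them at an unadjusted p under 0.05, with a mean level of 10.54 to 10.93 on knockout arrays and 10.32 to 10.57 on wild-type arrays (median 0.27). Neither list held a gene with a mean under 5. Leukocyte markers ran the other way, with 6 of 9 lower in mean, 3 of them at an unadjusted p under 0.05 (the T and NK cell genes *Cd3e*, *Cd3g* and *Nkg7*, at -0.66, -0.65 and -0.89), a mean level of 6.67 to 7.24 on knockout and 6.86 to 7.49 on wild-type arrays, and a median of -0.20. All 6 seminal vesicle markers had a higher knockout mean (median 0.52), none at an unadjusted p under 0.05, and their high values lay on knockout array 1 and wild-type array 1. Smooth muscle and endothelium each had 7 of 9 markers higher in mean and 2 lower, none at an unadjusted p under 0.05. Of 6 urothelial markers 3 were higher and 3 lower, 1 of them (*Upk3b*, 1.73) at an unadjusted p under 0.05. No gene of these lists passed after adjustment. Their part in the *Pgr* difference was not tested. Array by array, *Pgr* was highest on knockout array 1 and lowest on wild-type array 1. The fibroblast, smooth muscle and endothelial means were highest on knockout array 1, at 10.93, 12.84 and 8.02. On wild-type array 1 they were 10.41, 12.40 and 7.70. Among wild-type arrays, the fibroblast and smooth muscle means were lowest on array 3 (10.32 and 12.32), and the endothelial mean was highest on array 1. The part of these levels in the *Pgr* values was not tested.

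**Figure D2:**
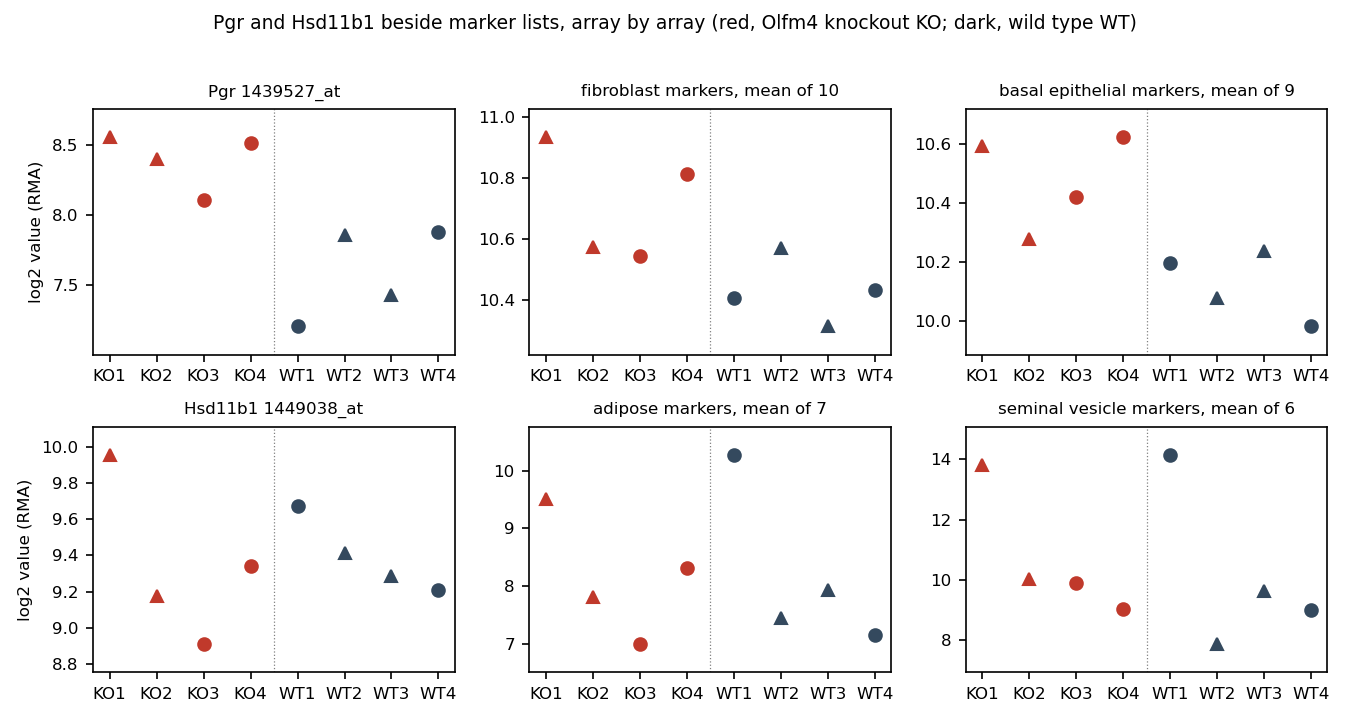
Log2 value on each array (y axis; x axis, knockout arrays KO1 to KO4, then wild-type arrays WT1 to WT4) of *Pgr* and *Hsd11b1*, and the mean log2 value of 4 marker lists; circles are array day 1 and triangles array day 2. *Pgr* and the basal mean do not overlap between genotypes, whereas *Hsd11b1* is highest on KO1 among knockout and on WT1 among wild-type arrays, as are the adipose and seminal vesicle means.

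The 250 bases before the annotated start of *Pgr* and of *Hsd17b11* are shown, since these are the members whose brightest or second probe set differed most; both read 5′ to 3′ on the gene's own strand, from the RefSeq table of GRCm38.p6, with capitals marking matches on either strand to TATAAA (the TATA box), GGGCGG (the GC box) and CCAAT (the box of that name).
Pgr, chr9:8899583-8899832, plus strand: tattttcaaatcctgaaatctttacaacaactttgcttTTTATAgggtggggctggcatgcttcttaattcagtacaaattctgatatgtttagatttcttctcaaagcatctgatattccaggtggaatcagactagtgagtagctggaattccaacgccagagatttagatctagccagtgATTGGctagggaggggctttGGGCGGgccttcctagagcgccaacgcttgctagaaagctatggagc
Hsd17b11, chr5:104021797-104022046, minus strand: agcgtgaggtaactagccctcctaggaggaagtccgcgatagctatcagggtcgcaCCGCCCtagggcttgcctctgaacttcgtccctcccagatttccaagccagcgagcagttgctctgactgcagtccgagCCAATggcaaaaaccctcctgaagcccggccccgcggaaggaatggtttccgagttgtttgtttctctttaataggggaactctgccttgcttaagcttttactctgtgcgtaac

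The *Pgr* window has a GC content of 43.6% and holds 1 match to each of the 3 motifs. Its TATAAA match lies on the strand opposite the gene, 212 bases before the annotated start. A match of letters does not show that the box is used. The *Hsd17b11* window has a GC content of 54.8%, 1 match to GGGCGG and 1 to CCAAT. Of 32851 promoter windows of the same length, 12.4% hold TATAAA, 32.7% GGGCGG and 33.8% CCAAT on either strand. The same window was available for 7 of the 10 members, in 9 entries, which were also searched for steroid receptor motifs. None held the estrogen receptor palindrome, searched as GGTCA followed after any 3 bases by TGACC (0.0639% of all windows). None held that of the glucocorticoid and progesterone receptors, searched as GNACA followed after any 3 bases by TGTNC (0.387%). Neither single arm, AGGTCA for the estrogen receptors (14% of windows) or TGTTCT for the others (16.1%), was found in any of the 9. The arms can overlap the palindromes, and a missing match says only that these letters are not in these 250 bases.

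The estrogen receptors did not separate the genotypes. *Esr1* (1460591_at) had 12.39, 12.36, 12.51 and 12.45 on the knockout arrays, against 12.32, 12.48, 12.44 and 12.53 on the wild-type arrays. The groups covered the same range, and the log2 fold change was -0.02 with a narrow confidence interval of -0.19 to 0.15 (adjusted p = 0.951, limma). Its sign differed between array days, at 0.05 on day 1 and -0.09 on day 2. The second *Esr1* probe set, 1435663_at, lay at 8.43 to 8.63 on knockout arrays and 8.34 to 8.65 on wild-type arrays (log2 fold change 0.06, interval -0.13 to 0.25), and the third, 1421244_at, was dim at 3.13 to 3.36 on knockout and 3.19 to 3.38 on wild-type arrays.

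*Esr2* (1426103_a_at), the beta receptor of prostate epithelium, had 5.81, 5.83, 5.84 and 6.15 on the knockout arrays, against 6.12, 6.10, 6.45 and 6.03 on the wild-type arrays. Of the knockout arrays only array 4 reached the wild-type range. The mean was 5.91 ± 0.16 in knockout and 6.17 ± 0.19 in wild-type prostate (SD, n = 4 each). The log2 fold change of -0.26 had a confidence interval of -0.55 to 0.02 (adjusted p = 0.428, limma), and was -0.08 on array day 1 and -0.45 on day 2.

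*Nr3c1*, the glucocorticoid receptor, had 6 probe sets with log2 fold changes on both sides of 0. The brightest, 1457635_s_at, had 11.04, 11.37, 11.08 and 11.23 on the knockout arrays, against 10.92, 11.05, 10.87 and 11.10 on the wild-type arrays. The groups overlapped in a narrow band, with a log2 fold change of 0.19 (interval -0.04 to 0.42, adjusted p = 0.475, limma). Probe set 1460303_at (0.13) lay on the same side, and 1421867_at (-0.05, interval -0.21 to 0.12) on the other. The dimmer 1453860_s_at had 5.38, 5.53, 5.62 and 5.52 on the knockout arrays, against 6.21, 5.85, 5.93 and 5.50 on the wild-type arrays. Here 3 of the wild-type arrays lay above every knockout array and wild-type array 4 lay among them. Its log2 fold change was -0.36 (SE 0.15, unadjusted limma p = 0.0407), with an adjusted p of 0.367 and, by the exact permutation test (2-sided), p = 0.114. It was -0.15 with the first array of each genotype left out, and -0.52 without wild-type array 4. The remaining probe sets, 1431378_at and 1421866_at, had log2 fold changes of -0.05 and 0.10. The mean over all 6 was -0.01. The suffix _s_at marks a probe set whose probes match more than 1 transcript.

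*Nr3c2*, the mineralocorticoid receptor, had 10.06, 9.89, 9.90 and 9.78 on the knockout arrays, against 9.66, 10.04, 10.16 and 10.07 on the wild-type arrays (1435991_at). Wild-type array 1 was the lowest of all 8, and the other 3 wild-type arrays lay among or above the knockout arrays. The log2 fold change was -0.08 (interval -0.32 to 0.16, adjusted p = 0.801, limma). With the first array of each genotype left out it was -0.22, with an adjusted p of 0.361 (limma).

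*Hsd11b1*, whose product amplifies glucocorticoid action in liver and fat, had 9.95, 9.18, 8.91 and 9.34 on the knockout arrays, against 9.67, 9.41, 9.29 and 9.21 on the wild-type arrays (1449038_at). Knockout array 1 and wild-type array 1 were the highest of their groups. Adipose markers were highest on the same arrays, with a mean over 7 genes of 9.51, 7.82, 6.99 and 8.31 on the knockout arrays and 10.28, 7.44, 7.93 and 7.14 on the wild-type arrays, and so were the seminal vesicle markers given above. The nerve markers (9.32 on knockout array 1 and 9.38 on wild-type array 1) and the endothelial markers (8.02 and 7.70 on the same arrays) were also highest there within each genotype. The knockout mean was above the wild-type mean for 4 of the 7 adipose markers and below it for 3, and 1 of them had a mean under 5. The part of these lists in the *Hsd11b1* values was not tested. The log2 fold change of *Hsd11b1* was -0.05 with the widest interval among the enzymes, -0.55 to 0.45 (adjusted p = 0.948, limma). It was -0.31 on array day 1 and 0.22 on day 2.

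*Hsd17b4*, the peroxisomal enzyme that joins a hydratase and a dehydrogenase in 1 protein, gave a different sign with each probe set. The brighter, 1455777_x_at, had 11.04, 11.30, 11.03 and 11.16 on the knockout arrays, against 10.84, 10.99, 11.01 and 11.10 on the wild-type arrays. Its log2 fold change was 0.15 (interval -0.06 to 0.36, adjusted p = 0.542, limma), with overlapping groups. Probe set 1417369_at had 10.14, 10.17, 10.33 and 10.31 on the knockout arrays, against 10.36, 10.40, 10.46 and 10.37 on the wild-type arrays. All knockout arrays lay below all wild-type arrays, by a small margin. This difference was -0.16 (SE 0.07, interval -0.32 to 0.00045), being -0.05 on array day 1 and -0.27 on day 2. Its unadjusted limma p was 0.0505 and its adjusted p 0.391. The exact permutation test (2-sided), which left array day out, gave p = 0.0286, its smallest possible value here. The suffix _x_at marks probes that can also bind other transcripts, and the mean of both probe sets differed by -0.01.

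*Hsd17b6*, a dehydrogenase known from androgen metabolism, was dim on all 8 arrays. Its probe sets 1449386_at and 1449385_at lay between 3.42 and 3.71 on knockout arrays and between 3.44 and 3.87 on wild-type arrays. Their log2 fold changes were -0.08 and -0.01, with adjusted p of 0.802 and 0.978 (limma). At such values a difference between genotypes may not be detectable.

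*Hsd17b11*, a dehydrogenase found on lipid droplets, was measured by a bright, a middling and a dim probe set. The bright 1434642_at had 12.93, 12.79, 12.61 and 12.77 on the knockout arrays, against 12.86, 12.84, 12.80 and 12.92 on the wild-type arrays. The knockout range enclosed the wild-type range, with a log2 fold change of -0.08 (interval -0.27 to 0.11, adjusted p = 0.728, limma). Probe set 1421011_at had 8.29, 8.18, 8.27 and 8.11 on the knockout arrays, against 8.46, 8.50, 8.56 and 8.78 on the wild-type arrays. All knockout arrays lay below all wild-type arrays, and the mean was 8.21 ± 0.08 in knockout and 8.58 ± 0.14 in wild-type prostate (SD, n = 4 each). This gave a log2 fold change of -0.36 (SE 0.09, interval -0.57 to -0.15), or 1.29-fold higher in wild type. Its unadjusted limma p was 0.00456 and its adjusted p 0.233. By the exact permutation test (2-sided) p was 0.0286. The log2 fold change was -0.43 on array day 1, -0.29 on day 2 and -0.47 with the first array of each genotype left out. The dim 1443059_at, at 3.50 to 4.01 on knockout and 3.48 to 3.84 on wild-type arrays, had 0.01.

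**Figure D3:**
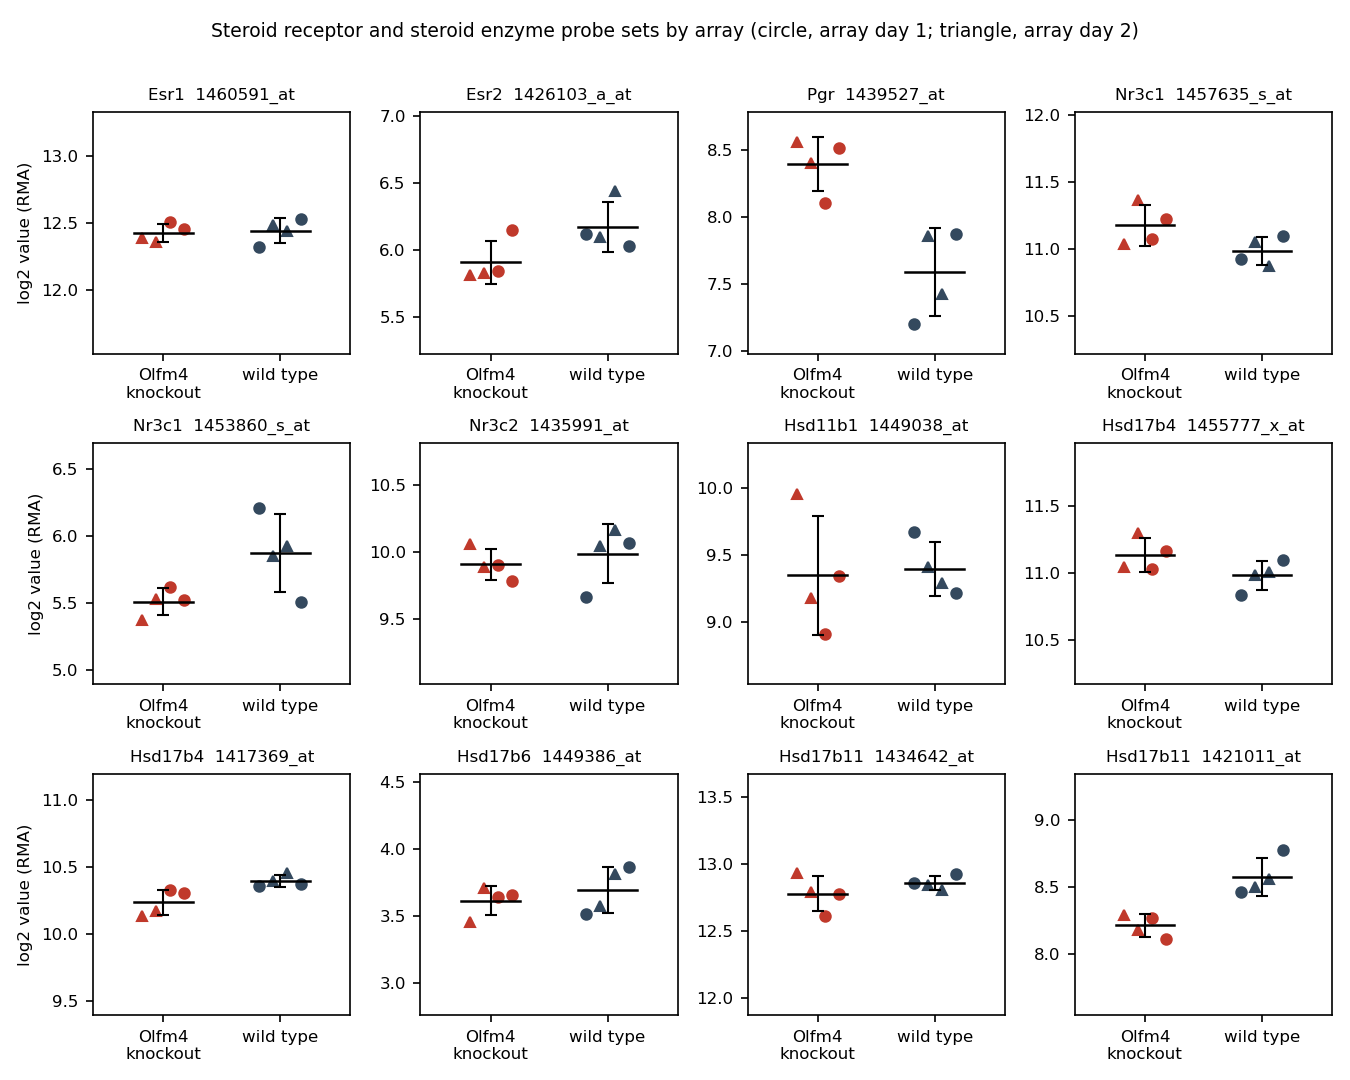
Log2 value (y axis, each panel spanning the same number of log2 units) on each knockout array (left) and wild-type array (right) for 12 of the 22 probe sets; circles are array day 1, triangles array day 2, the long line the mean and the bars 1 SD (n = 4). The groups do not overlap for *Pgr* 1439527_at, *Hsd17b4* 1417369_at and *Hsd17b11* 1421011_at.

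Few members differed between array days. At an unadjusted p under 0.05, 1 of the 22 probe sets differed between days (4.55%), against 4.62% of the table, and none of either passed after adjustment (limma). For the interaction of genotype with array day no member had an unadjusted p under 0.05, where 4.9% of all probe sets did, and 1 probe set of the table passed after adjustment. The interaction p of *Pgr* 1439527_at was 0.869 before adjustment and 0.983 after it (limma).

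The genes that work with these receptors and enzymes were read from 7 lists of 133 genes, of which 117 had a probe set of their own; a gene was represented by its brightest probe set. None passed after adjustment. Of the 117, 8 (6.84%) had a higher mean in knockout prostate with an unadjusted p under 0.05 and 9 (7.69%) a lower one, against 6.27% and 8.49% of all 18193 genes. Their median log2 fold change was 0.00, beside -0.01 over all genes. Both shares are near those of all genes. Over all probe sets, every knockout array lay above every wild-type array for 3.69% and below for 5.03%. The genes named below had the smallest p of their lists, so lack of overlap among them follows in part from that choice. It is not to be set against these shares.

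Among 33 measured enzymes of steroid synthesis and conversion, 1 was higher and 3 were lower at an unadjusted p under 0.05 (median log2 fold change 0.03). Over all genes, 6.27% were higher and 8.49% lower. *Akr1c12*, an aldo-keto reductase, had 8.21, 8.50, 8.94 and 9.07 on the knockout arrays, against 9.34, 9.42, 9.28 and 9.24 on the wild-type arrays. All knockout arrays lay below all wild-type arrays, with a log2 fold change of -0.64 (adjusted p = 0.223, limma) that was -0.29 on array day 1 and -0.997 on day 2. *Fdx1*, the ferredoxin that passes electrons to mitochondrial P450 enzymes, had -0.24 with groups that did not overlap (adjusted p = 0.265, limma). *Sult1e1*, the estrogen sulfotransferase, had 0.42, with groups that overlapped on wild-type array 1 (adjusted p = 0.348, limma).

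Of 21 measured coregulators and chaperones, 3 were higher and 3 lower at an unadjusted p under 0.05 (median -0.03). The shares over all genes were 6.27% higher and 8.49% lower. *Greb1*, a cofactor and target of estrogen receptor alpha, had 9.55, 9.59, 9.90 and 10.03 on the knockout arrays, against 10.14, 10.09, 10.34 and 10.43 on the wild-type arrays. Its groups did not overlap, and the log2 fold change was -0.48 (adjusted p = 0.209, limma). Its second probe set, 1419593_at, gave -0.57 (adjusted p = 0.188, limma), also without overlap, and its dim probe sets gave 0.04 and 0.01. The mean of its probe sets was -0.25. *Ep300*, a histone acetyltransferase, had 0.19, and *Fkbp4*, a co-chaperone of the steroid receptors, had -0.19, each without overlap (adjusted p = 0.303 and 0.311, limma).

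All 21 glucocorticoid-responsive genes were measured, with 2 higher and 2 lower at an unadjusted p under 0.05 (median 0.06). Of all genes, 6.27% were higher and 8.49% lower. *Per1*, a clock gene that glucocorticoids induce, had 7.80, 8.26, 7.85 and 7.86 on the knockout arrays, against 8.33, 8.81, 8.50 and 8.52 on the wild-type arrays. The highest knockout array lay just below the lowest wild-type array, with a log2 fold change of -0.60 that was -0.57 on array day 1 and -0.62 on day 2 (adjusted p = 0.182, limma). *Klf9*, another induced transcription factor, was read by 7 probe sets that differed in sign. Its brightest, 1428288_at, had 12.07, 12.39, 12.01 and 12.20 on the knockout arrays, against 11.88, 11.79, 11.71 and 11.72 on the wild-type arrays, a log2 fold change of 0.39 (adjusted p = 0.235, limma). Probe set 1428289_at had -0.24, with all knockout arrays below all wild-type arrays, and the mean of the 7 was 0.01. *Klf15* had -0.18 (adjusted p = 0.315, limma).

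Of 18 measured estrogen- and progesterone-responsive genes, 1 was higher and 2 were lower at an unadjusted p under 0.05 (median 0.01). These compare with 6.27% higher and 8.49% lower over all genes. *Greb1* is one of these as well. *Ihh*, the hedgehog ligand that progesterone induces in the uterus, had 5.54, 6.30, 5.80 and 5.58 on the knockout arrays, against 6.64, 6.33, 6.67 and 6.21 on the wild-type arrays. Knockout array 2 overlapped the wild-type range, and the log2 fold change was -0.66 (adjusted p = 0.263, limma), and -0.36 with the first array of each genotype left out. *Xbp1*, a transcription factor of the secretory pathway, had 0.18 on its brightest probe set and 0.08 to 0.17 on the others (adjusted p of the brightest = 0.374, limma).

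The 9 measured ion transport genes that respond to mineralocorticoids held none at an unadjusted p under 0.05. The smallest p belonged to *Kcnj1*, at -0.11. *Sgk1*, the kinase that aldosterone induces, had 0.15, at -0.09 on array day 1 and 0.39 on day 2. *Scnn1b*, a subunit of the epithelial sodium channel, had -0.31, with knockout array 1 at 6.29 and the other 7 arrays between 7.36 and 7.91. Of 16 measured genes of peroxisomal beta-oxidation, the pathway that holds *Hsd17b4*, *Amacr* alone was higher at an unadjusted p under 0.05 (6.27% of all genes were). This racemase of branched fatty acids had 7.78, 7.80, 7.87 and 7.65 on the knockout arrays, against 7.57, 7.32, 7.08 and 7.61 on the wild-type arrays, a log2 fold change of 0.38 without overlap (adjusted p = 0.274, limma) that was 0.17 on array day 1 and 0.59 on day 2. *Acaa1a* and *Acot8* followed with 0.20 and -0.11. The estrogen-related receptors *Esrrg*, *Esrra* and *Esrrb* are orphan receptors akin to *Esr1*. Their brightest probe sets had 0.17, -0.06 and 0.03, none at an unadjusted p under 0.05. Dim probe sets gave -0.47 for *Esrrg* (1457896_at) and 0.27 for *Esrrb* (1441921_x_at), each at an unadjusted limma p under 0.05 (adjusted p = 0.386 and 0.318). The other dim probe sets of *Esrrg*, *Esrra* and *Esrrb* gave 0.07, -0.15 and -0.08, none under that p.

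**Figure D4:**
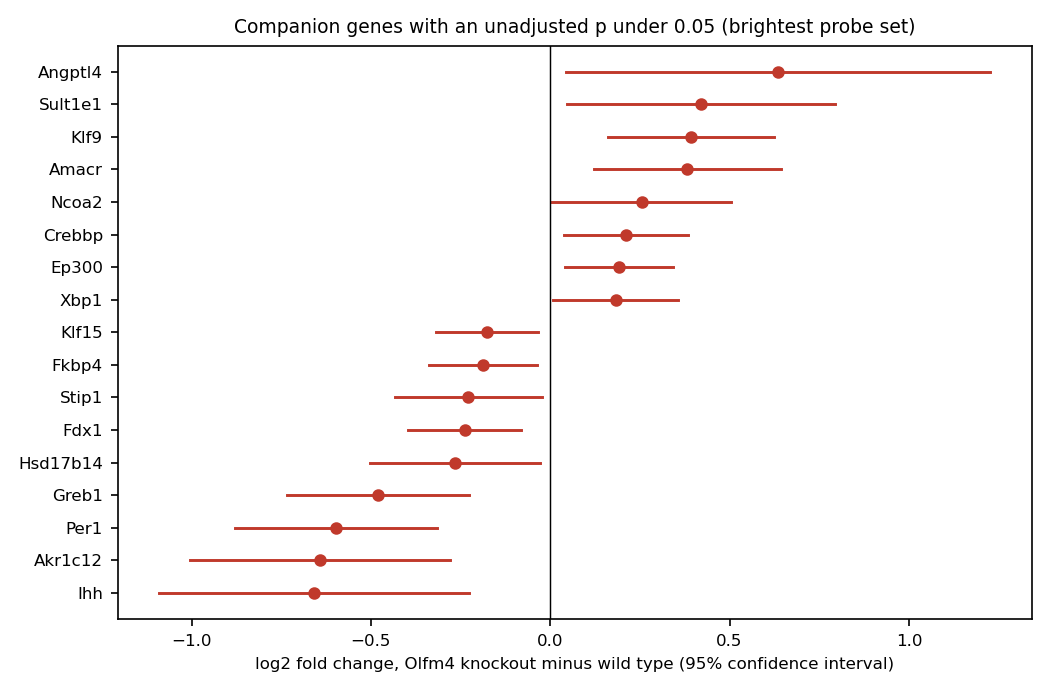
Log2 fold change of knockout over wild type (x axis) of the 17 companion genes (rows) with an unadjusted p under 0.05, by brightest probe set; points are limma estimates and bars 95% confidence intervals. The 8 higher genes run from *Angptl4* at 0.64 to *Xbp1* at 0.18, the 9 lower ones from *Klf15* at -0.18 to *Ihh* at -0.66, and none passed after adjustment. *Hsd17b14*, *Crebbp*, *Ncoa2*, *Stip1* and *Angptl4* are drawn because of this p and were named after their values were seen.

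Some of these values moved by more than 1.5 times between array days or arrays. *Angptl4*, a secreted lipase inhibitor, had 10.69, 9.77, 9.58 and 9.75 on the knockout arrays, against 9.58, 9.28, 8.99 and 9.39 on the wild-type arrays. Knockout array 1 stood above the others, and the log2 fold change was 0.18 on array day 1, 1.09 on day 2 and 0.36 without knockout array 1. On array days 1 and 2, *Xbp1* had 0.06 and 0.30, *Fkbp4* -0.11 and -0.27, *Greb1* -0.32 and -0.64, and *Ncoa2* 0.11 and 0.40. *Hsd17b14* had -0.10 on day 1 and -0.43 on day 2, and *Stip1* had -0.08 on day 1 and -0.37 on day 2. These values are those of the brightest probe sets. Over both days, the second probe set of *Ncoa2*, 1435234_at, gave -0.07, and its dimmer ones gave 0.14 and 0.005. The dim 1453410_at of *Angptl4* gave -0.07. Of all genes named from the lists, the signs of *Sgk1*, *Scnn1b*, *Esrra* and *Esrrb* differed between the days.

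For each member the 3 genes most like it in pattern were listed, by Pearson correlation of brightest probe sets over the 8 arrays, among 14296 genes with a mean log2 value of 5 or more (14297 for *Hsd17b6*). The arrays share genotype, array day and tissue makeup, so these values only describe. *Pgr* was nearest to *Klhl7* (0.983), *Igfbp6* (0.973) and *Naa25* (0.972). *Esr1* was nearest to *Ap4m1* (0.975), *Esr2* to *Ift74* (0.977), *Nr3c2* to *Mras* (0.952) and *Hsd11b1* to *Odam* (0.964). *Nr3c1* was nearest to *Tmem64* (0.991) and *Hsd17b4* to *Phf3* (0.985). *Hsd17b6*, dim on all 8 arrays, was nearest to *Slc39a9* (0.975) and *Hsd17b11* to *Gfod2* (0.980). The number of genes with a correlation of 0.9 or more ran from 12 for *Esr1*, 18 for *Nr3c2* and 19 for *Hsd17b11* to 82 for *Hsd17b4* and 195 for *Nr3c1*, with 70 for *Pgr*. No count for an unrelated pattern was worked out, so these numbers have no reference.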

How the data were processed

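Arrays of whole-prostate RNA, 1 per mouse, came from 4 *Olfm4*-knockout and 4 wild-type mice. The log2 values were deposited by the authors after RMA. No source used here gives its version. They carry no detection calls, and the number of arrays limits precision. Symbols came from the platform annotation: 34945 probe sets had 1, 932 several and 9160 none. Promoters came from the RefSeq table of GRCm38.p6.

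Each probe set was fitted in limma 3.58.1 (R 4.3.3; 2-sided moderated test after lmFit and eBayes) on genotype and array day, and p was adjusted by Benjamini-Hochberg over 45037 probe sets without the 64 controls. The methods name ANOVA without covariates, which was run as an alternative. Single values were also given an exact permutation test over all 8 arrays, which did not keep array day as a block. The fit was tested on simulated data.

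The members and all gene lists were chosen with earlier results of these data known. Named were *Olfm4*, every member probe set, up to 3 genes of smallest p per list, and the 3 genes nearest each member in pattern. Alternatives were other covariates, blocks, weights, scalings, filters on the mean log2 value (5 and 7), single array days, the mean over probe sets, and leaving out arrays.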

Additional observations from a re-analysis of the deposited data

Results flagged for a closer look

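A value was set aside for a closer look where, among the 4 arrays of a genotype, the highest or lowest was far from the rest for the range of the group. Examined were both genotypes of every member probe set and of the companion genes with an unadjusted limma p under 0.05. Of 78 groups examined 5 met this, and chance alone gives about 1 in 20 for groups not picked by their values. The companion genes were picked by theirs, so that rate need not hold for them. *Esr2* 1426103_a_at had 6.15 on knockout array 4, against 5.81 to 5.84 on the other knockout arrays. *Per1* 1449851_at had 8.26 on knockout array 2, against 7.80 to 7.86 on the others. *Nr3c1* 1421866_at, a dim probe set, had 3.75 on knockout array 2, against 3.50 to 3.53. *Pgr* 1421444_at, also dim, had 3.60 on wild-type array 3, against 3.22 to 3.28 on the other wild-type arrays. *Fkbp4* 1416362_a_at had 11.89 on wild-type array 1, where the others lay at 11.93, a gap of small absolute size.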

How the results depend on the processing

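No member probe set passed after adjustment under any of 22 alternatives. *Pgr* kept its direction and an unadjusted p under 0.05 under all 23 of its alternatives, from 0.39 to 0.94, with a smallest adjusted p of 0.118. The lowest, 0.39, is the mean over its 3 probe sets, and the other alternatives read 1439527_at. *Hsd17b11* 1421011_at also kept its direction and an unadjusted p under 0.05 under all 22 of its own, from -0.47 to -0.29, with a smallest adjusted p of 0.127 (limma). Member probe sets lower at an unadjusted p under 0.05 numbered 4 without array day, 1 after median centring or repeated quantile normalization, 1 on array day 1 alone, 4 on day 2 alone and 1 to 3 with each array left out. Those higher numbered 2 with array weights and 1 to 3 with each array left out. All probe sets called numbered 24 by ANOVA without array day, 4 on either day alone and 17 to 43 with each array left out: 24, 26 and 20 without knockout arrays 2, 3 and 4, and 17 and 19 without wild-type arrays 2 and 3. Companion genes numbered 3 higher and 4 lower on day 1 alone, and 4 to 9 higher and 5 to 11 lower with each array left out. The cause was not tested. A single day holds 2 arrays of each genotype, so array day and number of arrays cannot be told apart there.

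Replicate numbers are shared by the genotypes, and the deviations of same-numbered arrays correlated at 0.34, 0.17, 0.04 and -0.01, so they were not taken as pairs. With a replicate block, 20 probe sets of the table and no member were called, and 2 member probe sets were higher at an unadjusted p under 0.05.

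Signs turned for *Esr1* 1460591_at (0.013 after median centring, 0.054 on day 1 alone, -0.073 to 0.013 with each array left out), *Hsd11b1* (0.22 on day 2 alone, -0.26 to 0.096 with each array left out) and *Hsd17b11* 1434642_at (0.039 on day 2 alone). As the mean of all probe sets, *Nr3c1* had -0.0058, *Hsd17b4* -0.0053 and *Crebbp* -0.023. Dim probe sets and 4 arrays a genotype limit what could be detected.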
